A study of Drosophila melanogaster with 3 samples.

Results

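Peroxins are the proteins that build peroxisomes, and the transcripts of 8 of them (Pex2, Pex5, Pex10, Pex11, Pex13, Pex14, Pex16 and Pex19) were followed in wounded syncytial Drosophila embryos. They were chosen by gene symbol from the probes of a spotted cDNA array. Each of the 8 is represented by 1 clone with a value on all 3 arrays, out of 10183 genes and probes tested. For 7 of them the platform's annotation names the gene. Clone RE39562 carries no symbol there and stands for Pex11 because the study gives that clone's value to Pex11, which it lists among its most lowered genes. The fall of this clone was thus known when it was included, and it is no independent evidence. NCBI RefSeq's Release 6 table uses the name Pex11 as a synonym of 2 genes, Pex11ab and Pex11c. The study's fly stock for Pex11 is listed under CG8315, which is Pex11ab.

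Peroxisomes are small organelles bounded by a single membrane that shorten very long fatty acids, make ether lipids and break down hydrogen peroxide. Their enzymes are made in the cytosol, bound by a receptor, brought to a docking complex on the peroxisome and passed into its interior. The receptor is then tagged with ubiquitin and pulled back out for another round, while a separate set of peroxins inserts membrane proteins and another elongates and divides the organelle. In flies, loss of several of these genes disturbs spermatogenesis. An embryo that still divides as a syncytium relies largely on RNA and protein loaded by the mother.

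Each array compared RNA of laser-wounded embryos with RNA of embryos handled alike but not wounded. Embryos of both conditions were 0 to 1 h old, carried the actin reporter sGMCA, were dechorionated by hand, lay under halocarbon oil and were frozen 30 min later. The 3 arrays come from experiments that the labels number 3, 4 and 5, and p-values measure the spread between these arrays. The study's methods call the replicates independent and describe more of them than were analysed here, and the labels do not say which fly collection each array came from. Cy3 marked the wounded and Cy5 the unwounded embryos throughout, so that an effect of the dyes and an effect of wounding cannot be told apart. A value is a log2 ratio, where 0 means equal signal in both conditions. It holds no level of a transcript, so neither the abundance of the peroxins nor markers of the embryo's stage could be read as levels.

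The sign was read as wounded over unwounded. This is the direction of the study's own lists, in which ImpL2 is raised and Pex11, Cyp6a9 and ReepB are lowered. ImpL2 had 1.83, 1.16 and 1.09 in experiments 3, 4 and 5, and the other 3 had negative values throughout. The deposited table itself does not state its sign, and with the sign turned every direction would turn too. Of the 10183 genes and probes, 171 (1.68%) were called lower and 66 (0.648%) higher in wounded embryos, together 2.33%. For a call, a feature had to differ by 1.5-fold or more (0.58 on the log2 scale) with a limma adjusted p under 0.05. Their adjusted p-values lay between 0.0365 and 0.0493, close to the threshold, and 0 calls were left in either direction when any 1 of the 3 arrays was left out.

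Of the 8 peroxins, 1 (Pex11) was called lower, 0 were called higher and 7 were not called. At an unadjusted p under 0.05, limma passed 3 of the 8 (Pex11, Pex5 and Pex10), or 37.5%, all of them lower in wounded embryos. Of all 10183 features it passed 2543 (25.0%), 1515 of them lower and 1028 higher. The median of the 8 mean log2 ratios was -0.026, beside 0.0014 over all features. The Pex11 clone, included with its fall known, counts in these values. Without it, 2 of the other 7 peroxins (28.6%) had an unadjusted limma p under 0.05, and the median was -0.0014. With 8 genes, 1 call is too few to be read against the 2.33% of all features that were called.

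**Figure D1:**
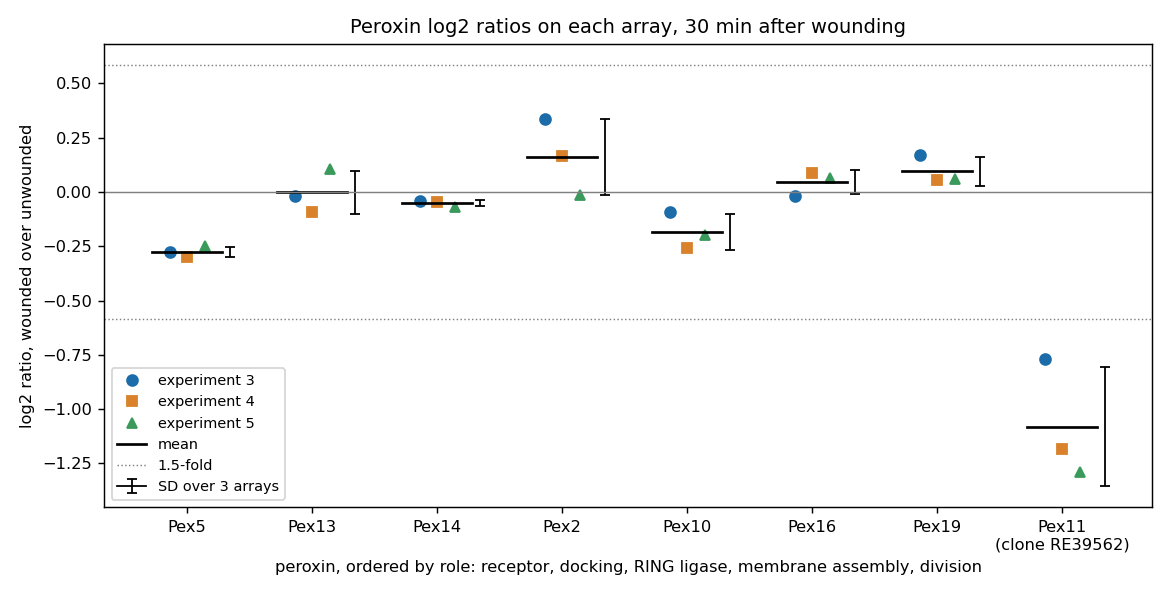
Log2 ratio of wounded over unwounded embryos for the 8 peroxins, ordered by role, with a point for each of the 3 arrays, a line at the mean and a bar of 1 SD. The Pex11 clone lies between -1.29 and -0.77, and the other 7 peroxins lie between -0.30 and 0.33, inside the dotted lines of a 1.5-fold change.

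Pex11 promotes the elongation and division of peroxisomes. Its clone had log2 ratios of -0.77, -1.18 and -1.29 in experiments 3, 4 and 5. All 3 arrays thus showed less signal in wounded embryos, and experiment 3 the smallest difference. The mean was -1.08 ± 0.27 (SD, n = 3), which is 2.12-fold lower in wounded embryos, with a 95% interval of -1.39 to -0.77 (limma, adjusted p = 0.0365). On the same arrays it ranked 118th, 82nd and 32nd from the lowest of the 10183 features, and 26th by its mean. Without experiment 3, 4 or 5 the mean was -1.24, -1.03 or -0.98 and the adjusted p 0.147, 0.0835 or 0.180, so that each of the 3 arrays was needed for the call. Scaling the arrays to the same spread left the mean at -1.08 and gave an adjusted p of 0.0620, again without a call. In RNA of whole embryos, fewer embryos of a stage that carries a transcript and less of it in each embryo cannot be told apart.

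Some stage-dependent transcripts also differed between the conditions. Of 13 early zygotic genes tested, 9 were called higher and 0 lower in wounded embryos, and of 14 maternal RNAs 0 were called higher and 4 lower. Of all features, 0.648% were called higher and 1.68% lower. Both lists were chosen with earlier results of these data known, so these counts are no independent evidence. The other 4 early zygotic genes and 10 maternal RNAs were not called, and 5 of the 14 maternal means were above 0. The median was 0.97 for the early zygotic genes and -0.15 for the maternal RNAs, beside 0.0014 over all features. Their part in the fall of the Pex11 clone was not tested.

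Pex5 is the soluble receptor that recognises the carboxy-terminal import signal of most peroxisomal enzymes. It had -0.28, -0.30 and -0.25 in experiments 3, 4 and 5, a small difference that was nearly the same on every array. The mean was -0.28 ± 0.024 (SD, n = 3), 1.21-fold lower in wounded embryos, with a 95% interval of -0.43 to -0.12 that is not adjusted for the number of features. After adjustment it did not pass (limma, adjusted p = 0.0849), and its size is below the 1.5-fold minimum. Only 2.79% of all features had a smaller SD, yet 12.1% had a lower mean.

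Pex13 and Pex14 form the docking site for the loaded receptor in the peroxisomal membrane. Pex13 had -0.020, -0.091 and 0.11 in experiments 3, 4 and 5, on either side of 0, with a mean of -0.0014 ± 0.10. Pex14 had -0.041, -0.044 and -0.069, all slightly below 0, with a mean of -0.051 ± 0.015. The 95% intervals were -0.19 to 0.18 for Pex13 and -0.21 to 0.11 for Pex14, and neither passed (limma, adjusted p = 0.992 and 0.625). The SD of Pex14 was smaller than that of all but 1.19% of features. Pex5, the receptor that docks on them, was below both on every array, with a mean difference of -0.22 ± 0.038 from Pex14 and of -0.27 ± 0.077 from Pex13.

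Pex2 and Pex10 are RING-finger proteins of the ubiquitin ligase that marks the receptor for recycling. Pex2 had 0.33, 0.17 and -0.015 in experiments 3, 4 and 5, with a mean of 0.16 ± 0.17, the highest of the 8 peroxins over the 3 arrays. That place rested on experiment 3, without which Pex2 had 0.0755 and Pex16 0.0764. Pex10 had -0.092, -0.26 and -0.20, below 0 on every array, with a mean of -0.18 ± 0.084. Pex2 thus lay above Pex10 on all 3 arrays, with differences of 0.43, 0.42 and 0.18 and a mean difference of 0.34 ± 0.14. Over 3 arrays an exact sign-flip test cannot give a two-sided p below 0.25, which is the p this difference had. Neither gene passed on its own (limma, adjusted p = 0.321 for Pex2 and 0.191 for Pex10), and the 95% intervals were -0.069 to 0.39 for Pex2 and -0.36 to -0.0063 for Pex10.

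Pex16 and Pex19 act in the assembly of the peroxisomal membrane, Pex19 as the carrier of newly made membrane proteins. Pex16 had -0.017, 0.086 and 0.067 in experiments 3, 4 and 5, below 0 in the first of these and above it in the others, with a mean of 0.045 ± 0.055. Pex19 had 0.17, 0.055 and 0.060, above 0 on every array, with a mean of 0.096 ± 0.066. Neither passed (limma, adjusted p = 0.685 for Pex16 and 0.402 for Pex19), with 95% intervals of -0.12 to 0.21 for Pex16 and -0.074 to 0.27 for Pex19. Pex19 minus Pex16 was 0.051 ± 0.12 and changed sign between arrays.

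The 95% intervals of the 7 peroxins other than Pex11 all lay within a 1.5-fold change in either direction. They are not adjusted for the number of features, and the share of all features with such an interval was not counted. The highest bound was 0.39, for Pex2, and the lowest was -0.43, for Pex5. Smaller changes are not decided by these arrays. The same sign was found on all 3 arrays for 5 of the 8 peroxins (Pex11, Pex5, Pex10, Pex14 and Pex19). These are 62.5%, or 57.1% without the Pex11 clone, beside 50.3% of all features.

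**Figure D2:**
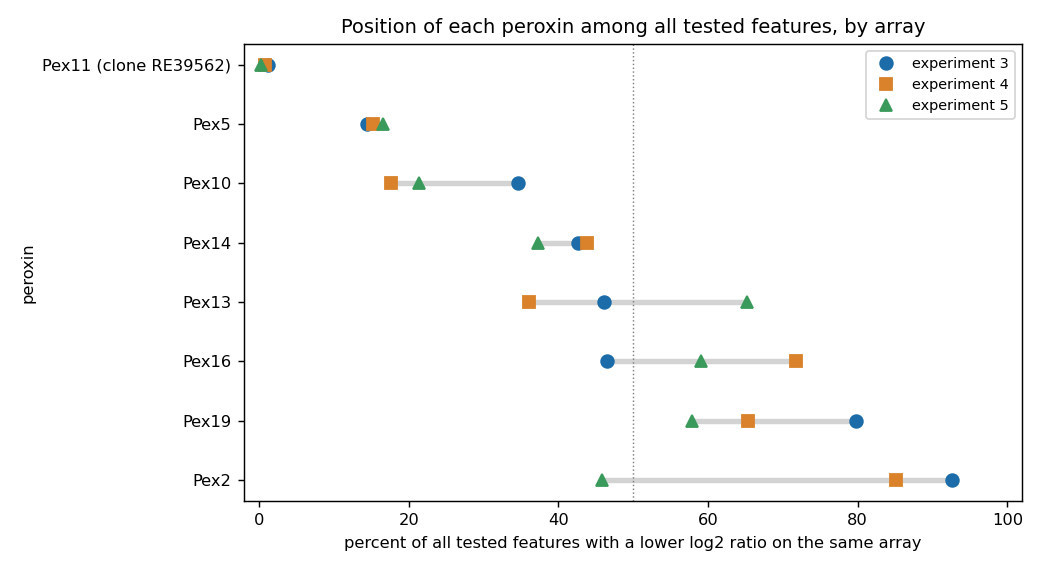
Position of the 8 peroxins among the 10183 tested features on each array, as the percent of features with a lower log2 ratio, sorted by mean ratio from the lowest at the top. The Pex11 clone had 1.15%, 0.795% and 0.304% of features below it in experiments 3, 4 and 5, and Pex5 kept to 14.4% to 16.5%, while Pex2 spread over 45.9% to 92.6%.

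In order of the mean, the peroxins ran from Pex11 through Pex5, Pex10, Pex14, Pex13, Pex16 and Pex19 to Pex2. The step from Pex11 to Pex5 was the widest, with 0.49, 0.88 and 1.04 in experiments 3, 4 and 5 and a mean of 0.81 ± 0.28. Between Pex5 and Pex10 the step was 0.092 ± 0.079, and the array values of these genes overlapped. Pex10 and Pex14 did not overlap and differed by 0.13 ± 0.081. Each of the remaining steps, Pex14 to Pex13 (0.050 ± 0.11), Pex13 to Pex16 (0.047 ± 0.12), Pex16 to Pex19 (0.051 ± 0.12) and Pex19 to Pex2 (0.066 ± 0.12), was smaller than its SD over the arrays. From Pex14 to Pex2, neighbours in this order therefore did not differ beyond their spread.

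The Pex11 clone was set against the mean of the other 7 peroxins on each array, since both then share the array and its normalization. An effect of the dyes on this clone alone stays in the difference, because Cy3 marked the wounded embryos throughout. The difference was -0.78, -1.13 and -1.25 in experiments 3, 4 and 5, with a mean of -1.05 ± 0.24 (SD, n = 3). The mean of the other 7 was 0.0087, -0.055 and -0.043. The exact sign-flip test gave p = 0.25, two-sided, the smallest that 3 arrays allow. As the clone was included with its fall known, the direction of this difference was known beforehand and the test lends it no support.

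**Figure D3:**
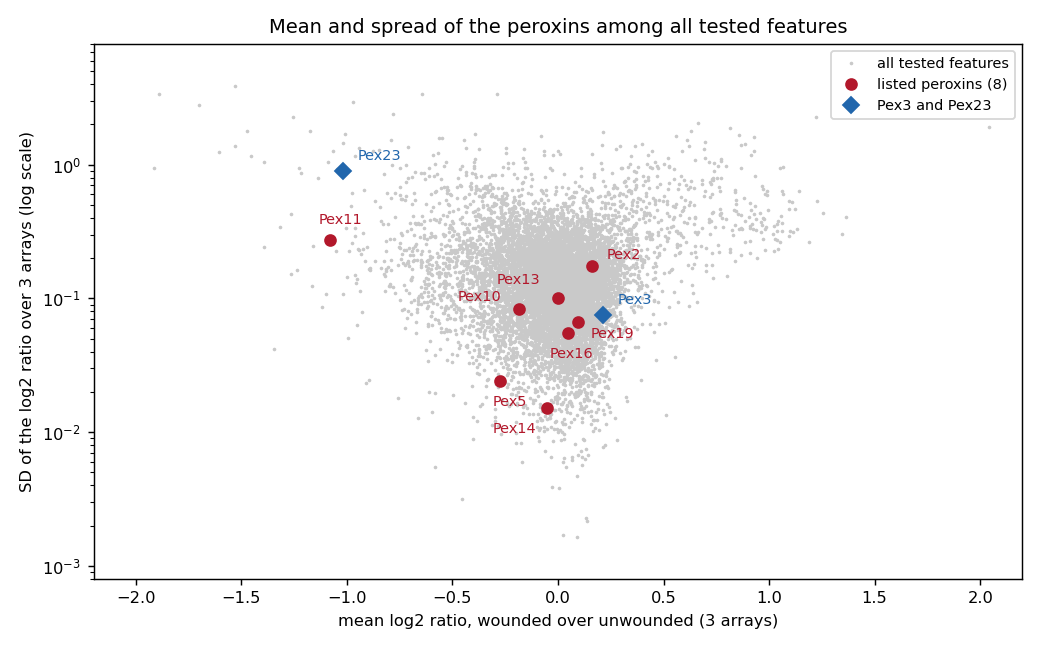
Mean log2 ratio over 3 arrays (x axis) against its SD on a log scale (y axis) for all 10183 tested features in grey, the 8 peroxins in red and Pex3 and Pex23 in blue. The Pex11 clone at -1.08 stands apart from the other 7 red points, which lie between -0.28 and 0.16, and Pex23 has a mean near that of the Pex11 clone with an SD of 0.90.

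Outside the 8, a pair of further peroxins, Pex3 and Pex23, was measured by a probe of its own gene. Pex3, the membrane anchor to which Pex19 delivers its cargo, had 0.23, 0.13 and 0.28 in experiments 3, 4 and 5, above 0 on every array. Its mean was 0.21 ± 0.075 and it did not pass (limma, adjusted p = 0.145). Pex23, a fly gene of that name, had -1.06, -1.90 and -0.093, so that its arrays ranged from almost no difference to a large one. Its mean of -1.02 ± 0.90 did not pass (limma, adjusted p = 0.163), and without experiment 4 it was -0.58, without experiment 5 it was -1.48. The 2 probes that list Pex6 also list another gene and were not used for it.

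None of the tested genes listed as cargo enzymes or partners of the peroxins was called. Of 25 genes of peroxisomal enzymes, carriers and division factors, 18 were tested and 0 were called by limma, beside 2.33% of all features. With 18 genes, 0 calls are too few to be read against that share. An unadjusted p under 0.05 in limma was found for 7, 5 of them lower and 2 higher in wounded embryos. These 7 are 38.9% of the 18, beside 25.0% of all features. The median of their means was -0.047, beside 0.0014 over all features.

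Among 10 genes of lipid oxidation the means ran from -0.55 to 0.27. The smallest p was that of Acat2, listed as CG9149, an acetyl-CoA acetyltransferase. In mammals the enzyme of that name is cytosolic. Acat2 had -0.50, -0.65 and -0.51 in experiments 3, 4 and 5, with a mean of -0.55 ± 0.086. It passed the adjusted p (limma, 0.0367) but stayed under the 1.5-fold minimum. Its 2 spots of 1 clone had means of -0.62 ± 0.096 and -0.49 ± 0.076, and tested on its own the first of them was called lower (limma, adjusted p = 0.0402). Next came Hacl, which in mammals cleaves branched and hydroxylated fatty acids in peroxisomes, at -0.39 ± 0.15 (limma, adjusted p = 0.0790).

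Both tested enzymes of ether lipid synthesis lay below 0. Gnpat, which makes the first acyl intermediate, had -0.17 ± 0.058, and Agps, which forms the ether bond, had -0.12 ± 0.12 (limma, adjusted p = 0.196 for Gnpat and 0.363 for Agps). Cat, the catalase that removes hydrogen peroxide, had 0.24, 0.19 and 0.35 in experiments 3, 4 and 5, with a mean of 0.26 ± 0.083 (limma, adjusted p = 0.110). The xanthine dehydrogenase gene ry had 0.91, 0.51 and 0.33, with a mean of 0.58 ± 0.30 (limma, adjusted p = 0.0815). Values of Cat and ry were above 0 on every array, although neither passed.

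Pex11 acts in division with a machinery that peroxisomes share with mitochondria. Drp1, the dynamin-related protein that cuts the membrane, had -0.32, -0.10 and -0.27, with a mean of -0.23 ± 0.11 (limma, adjusted p = 0.153). Fis1, a membrane adaptor of Drp1, had -0.059 ± 0.13 (limma, adjusted p = 0.666). The 95% interval of Drp1 was -0.42 to -0.036, and its lower bound did not reach the upper bound of the Pex11 clone at -0.77.

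**Figure D4:**
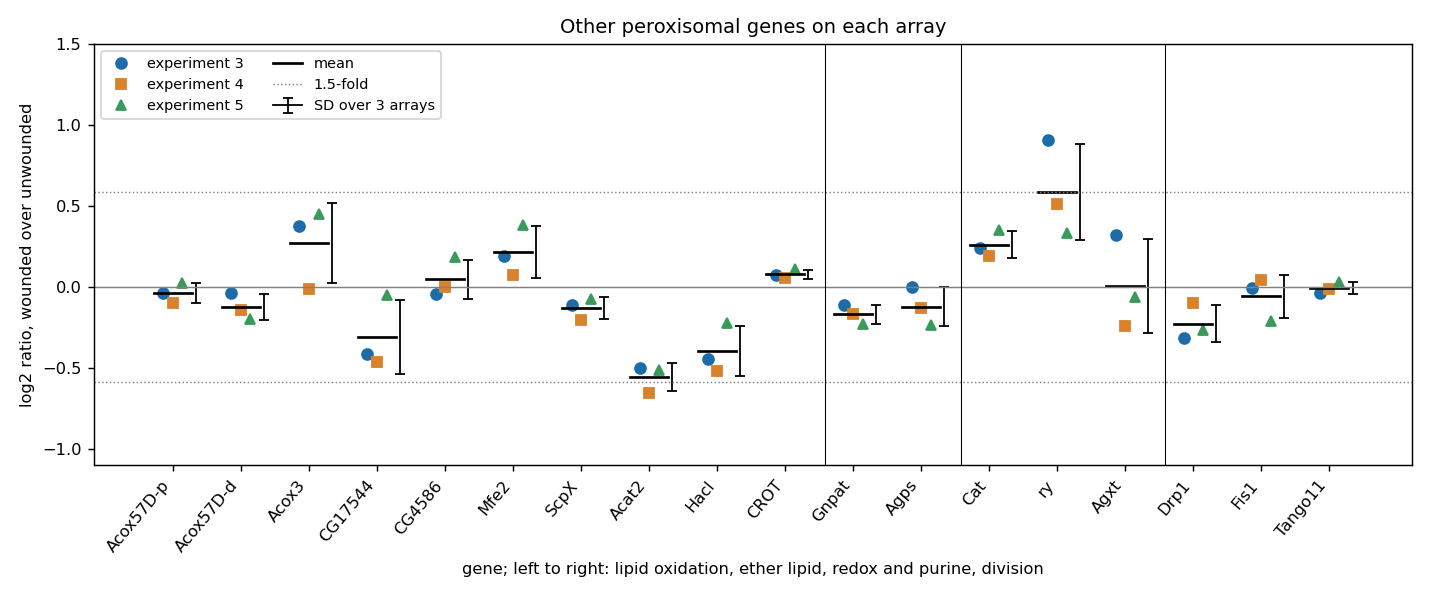
Log2 ratio of wounded over unwounded embryos for 18 other genes listed as peroxisomal. Each of the 3 arrays has a point, with a line at the mean and a bar of 1 SD. The groups are lipid oxidation, ether lipids, redox and purines, and division. The lowest mean is that of Acat2 at -0.55 and the highest that of ry at 0.58, and 0 of the 18 were called.

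Pex14 and Pex16 are next to each other on the chromosome in RefSeq's table. On the arrays Pex16 lay above Pex14 by 0.023, 0.13 and 0.14 in experiments 3, 4 and 5, a difference of 0.096 ± 0.063. Of 14 other protein-coding genes that flank the 8 peroxins, 11 were tested and 1 was called, beside 2.33% of all features. With 11 genes, 1 call is too few to be read against that share. The called gene was CG8320, which flanks Pex11ab. It had -0.45, -0.74 and -0.81 in experiments 3, 4 and 5 and a mean of -0.67 ± 0.19 (limma, adjusted p = 0.0404). The gene on the other side, CG8314, had 0.23 ± 0.18 and did not pass (limma, adjusted p = 0.208). These flanking genes were looked up after the peroxin values were known.

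Among the 8177 named genes, the 3 whose ratios over the 3 arrays lay nearest to those of the Pex11 clone were Cyp6a9, ReepB and CG15916, by Euclidean distances of 0.145, 0.268 and 0.291. Cyp6a9, a cytochrome P450, had -0.88, -1.24 and -1.36 in experiments 3, 4 and 5. Like the Pex11 clone, it had its smallest difference in experiment 3 and its largest in experiment 5. ReepB, a membrane-shaping protein of the endoplasmic reticulum, had -0.89, -1.09 and -1.07, and CG15916 had -0.76, -1.21 and -0.999. These genes were picked for their nearness to the clone, so this likeness follows from the choice. It describes values at 3 points and was not tested.

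Markers of tissues that are rich in peroxisomes later in life, oenocytes, fat body and gut, showed no call. Of 7 tested, 0 were called, beside 2.33% of all features, and 0 had an unadjusted p under 0.05 in limma, beside 25.0%. Their median was -0.073, beside 0.0014 over all features. With 7 genes, 0 calls are too few to be read against the share of all features.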

How the data were processed

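Per the methods of the study, the authors scanned 2-colour spotted cDNA arrays, removed spots that were near background, dim in both channels or questionable, took log2 ratios and loess normalized each array in limma, whose version is not given in the sources used here. Loess places most ratios close to 0, which hides any shift that most transcripts share. The deposited table holds these log2 values for 12144 probes on 3 arrays; how bright each spot was is not known here, and precision is set by there being 3 arrays. The 160 control spots were left out. Platform symbols were updated through RefSeq's Release 6 table, used for names and for which genes are neighbours only. A single symbol was found for 9917 probes. Probes of a gene with a value on all 3 arrays were averaged, which leaves 8177 named genes and 2006 other probes.

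Whether a mean ratio differs from 0 was tested two-sided by lmFit and eBayes of limma (3.58.1, under R 4.3.3), fitting 1 mean per feature, and p-values were adjusted by Benjamini and Hochberg's method over all 10183 features. Intervals are 95% intervals of that fit, and ± is the SD over 3 arrays. The fit was tested on simulated data. The peroxins, gene lists and tests were chosen with earlier results of these data known. Named genes were all 8 peroxins, Pex3 and Pex23, in each peroxisomal list the 2 with the smallest p, Cat, Drp1, and the 3 genes nearest to the Pex11 clone; flanking genes were added later. Alternatives changed probe averaging, missing values, scaling, centring, array weights, the arrays used, the sign, and the call rule. Sequences of the clones, promoters and proteins were not used here.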

Additional observations from a re-analysis of the deposited data

How the results depend on the processing

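The call of the Pex11 clone depended on the settings. Leaving out 1 of the 3 arrays gave means of -1.24 to -0.98, 0 to 0 called peroxins, and 0 to 0 features called higher or lower, while limma passed 1473 features without experiment 3, 2446 without 4 and 1675 without 5 when p was left unadjusted (under 0.05). With arrays scaled to the same spread its mean was -1.08 (limma, adjusted p = 0.0620), with 0 peroxins and 0 features called in either direction (2546 at an unadjusted p under 0.05). The test against a 1.5-fold change called 0 peroxins and 0 features in either direction (118 at an unadjusted p under 0.05). Over the settings that test against 0, the limma adjusted p of the clone ran from 0.0305 with array weights to 0.180 without experiment 5. In the test against a 1.5-fold change, the smallest limma adjusted p of any feature was 0.436. The clone lay below the mean of the other 7 peroxins on average whichever array was left out (-1.19 to -0.95), a direction already known when it was included.

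With no minimum fold 322 features were called lower, and Acat2, 1 of the 18 other genes listed as peroxisomal, was called. With each probe on its own 1 probe of these 18 genes was called, a spot of Acat2 at -0.62. At an adjusted p under 0.10, 115 features were called higher. The opposite sign gave 171 higher and 66 lower calls, and means of 1.08 for Pex11, 0.28 for Pex5, 0.18 for Pex10, 0.051 for Pex14, 0.0014 for Pex13, -0.045 for Pex16, -0.096 for Pex19, -0.16 for Pex2, -0.21 for Pex3 and 1.02 for Pex23. Pex2 ranged from 0.0755 to 0.25 with 1 array left out. Pex13, which lies at 0, ranged from -0.056 to 0.044 with 1 array left out, and Fis1 from -0.11 to 0.016. In the remaining settings the 8 peroxins kept their direction and their side of the threshold. Each array's ratio pairs wounded with unwounded RNA, so the test against 0 is already a paired one.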
